A study of Mus musculus with 80 samples.

Results

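The 10 neuropeptide genes Sst, Vip, Cck, Tac1, Tac2, Penk, Pdyn, Crh, Nts and Pnoc were followed through 5 brain regions of virgin and primiparous female mice. They were chosen by name, as peptides of telencephalic neurons and interneurons, from the 27179 genes of the deposited count table. All 10 were among the 13016 genes that reached 5 CPM or more (reads of a gene per 1e+06 counted reads) in 8 or more libraries. The name fits the data in part, since 5 of the 10 genes (Tac1, Tac2, Pdyn, Nts and Pnoc) had their highest level in the hypothalamus, 2 in the amygdala and 3 in the cortex.

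The study asked which expression differences last in the brain well after a first litter is weaned. RNA came from 8 virgin and 8 primiparous C57BL/6 females (C57BL/6J in the methods of the study), which were age-matched and carried no transgene or drug treatment, and 77 libraries were analysed here, each from 1 region of 1 mouse. Primiparous females had been paired with a male at 8 weeks of age and had reared their first litter, while virgin females had met no male. By the methods of the study, virgin females were also housed in groups of 8, unlike the paired females. Housing, mating, pregnancy and nursing therefore cannot be told apart. The labels place the harvest 3 weeks after weaning, while the methods of the study place it more than a month after weaning. Hypothalamus and cortex had 8 virgin and 8 primiparous libraries, and amygdala, hippocampus and cerebellum had 7 virgin and 8 primiparous libraries. The whole hypothalamus was taken, and the left side of the other regions.

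Neuropeptides are cut from longer precursor proteins, packed into dense-core vesicles and released alongside fast transmitters to act on G protein-coupled receptors. In the forebrain, somatostatin (Sst) and vasoactive intestinal peptide (Vip) mark separate classes of GABAergic interneurons, and cholecystokinin (Cck) is made by both interneurons and pyramidal cells. Enkephalin (Penk), dynorphin (Pdyn) and nociceptin (Pnoc) precursors feed the opioid and opioid-like receptors, the tachykinin genes (Tac1, Tac2) encode substance P and neurokinin B, and corticotropin-releasing hormone (Crh) and neurotensin (Nts) act in stress and arousal circuits and beyond.

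Counted reads ranged from 7959192 to 37871854 per library (median 17624000). The markers of the hypothalamus and of the cerebellum followed the labels. The summed level of 5 hypothalamic markers was 776 to 1421 CPM in the hypothalamus and at most 70.4 CPM elsewhere, and that of 5 cerebellar markers was at least 5146 CPM in the cerebellum and at most 460 CPM elsewhere. The latter value came from 1 hippocampus library of a primiparous female, in a group with a median of 15.6 CPM. Other lists varied within a region. Choroid plexus markers ran from 59.6 to 3887 CPM in primiparous hippocampus, and olfactory bulb markers from 6.47 to 276 CPM in primiparous cortex. In these bulk samples, fewer cells of a type and less RNA per cell cannot be told apart. Each mouse gave 1 library per region, so the replicates within a region were separate animals.

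The 3 members that passed the test between virgin and primiparous females in any region were Sst, Nts and Cck, and the 180 bases before their RefSeq start (GRCm38.p6, read 5′ to 3′ on the gene's strand) are shown to place those results beside the regulatory sequence. Capitals mark TGACGTCA, the full cAMP response element, or the shorter TGACG contained in it, searched on both strands, so that CGTCA is the shorter element on the other strand. The windows are chr16:23890845-23891024 (minus strand) for Sst, chr10:102490419-102490598 (minus strand) for Nts and chr9:121495695-121495874 (minus strand) for Cck.
Sst: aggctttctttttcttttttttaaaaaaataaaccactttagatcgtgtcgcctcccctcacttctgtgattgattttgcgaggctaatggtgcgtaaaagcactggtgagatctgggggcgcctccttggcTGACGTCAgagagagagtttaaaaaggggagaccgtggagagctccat
Nts: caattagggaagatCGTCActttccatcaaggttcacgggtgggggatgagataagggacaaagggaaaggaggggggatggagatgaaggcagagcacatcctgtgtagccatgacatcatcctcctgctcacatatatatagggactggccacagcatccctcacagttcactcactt
Cck: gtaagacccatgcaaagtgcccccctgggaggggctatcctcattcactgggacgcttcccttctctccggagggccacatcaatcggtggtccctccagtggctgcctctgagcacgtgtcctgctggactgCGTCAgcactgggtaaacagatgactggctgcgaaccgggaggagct

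Sst held the full element, whose first base lay at position -48 from the start. The shorter element began at -166 in Nts and at -47 in Cck. Promoter windows of 300 bases (250 before to 50 after the start) were listed for 7 of the 10 members, namely Sst, Vip, Cck, Tac1, Tac2, Pdyn and Nts. The full element stood in 1 of these 7 genes and in 1.79% of all 32851 windows, and the shorter element stood in 5 of the 7 (Sst, Vip, Cck, Tac1 and Nts) and in 20.8% of all windows. A match of letters is a description and not a site.

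The first comparison was between regions. Of the 100 combinations of a member and a pair of regions, 96 passed the test (edgeR's quasi-likelihood F-test, adjusted p under 0.05 over all genes). The background is high, since 73.0% of all tests over the 10 pairs of regions passed. The share was 71.0% between hypothalamus and amygdala, 73.0% between hypothalamus and hippocampus, 77.7% between hypothalamus and cortex and 81.1% between hypothalamus and cerebellum. It was 58.7%, 62.5% and 80.2% for the amygdala against hippocampus, cortex and cerebellum, 67.0% and 78.7% for the hippocampus against cortex and cerebellum, and 79.9% between cortex and cerebellum. In the main fit the members' share is above each of these, over genes chosen as regional peptides. Over 5 alternatives the calls ran from 70 to 96 of the 100, with 96 when the animal was held as a block. Which alternative gave 70 is not reported here, so the range does not show a dependence on the test used. The shares given here are those of the main fit. The pairs without a call were Sst and Pnoc between hippocampus and cortex, Nts between cortex and cerebellum, and Penk between cerebellum and hypothalamus.

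**Figure D1:**
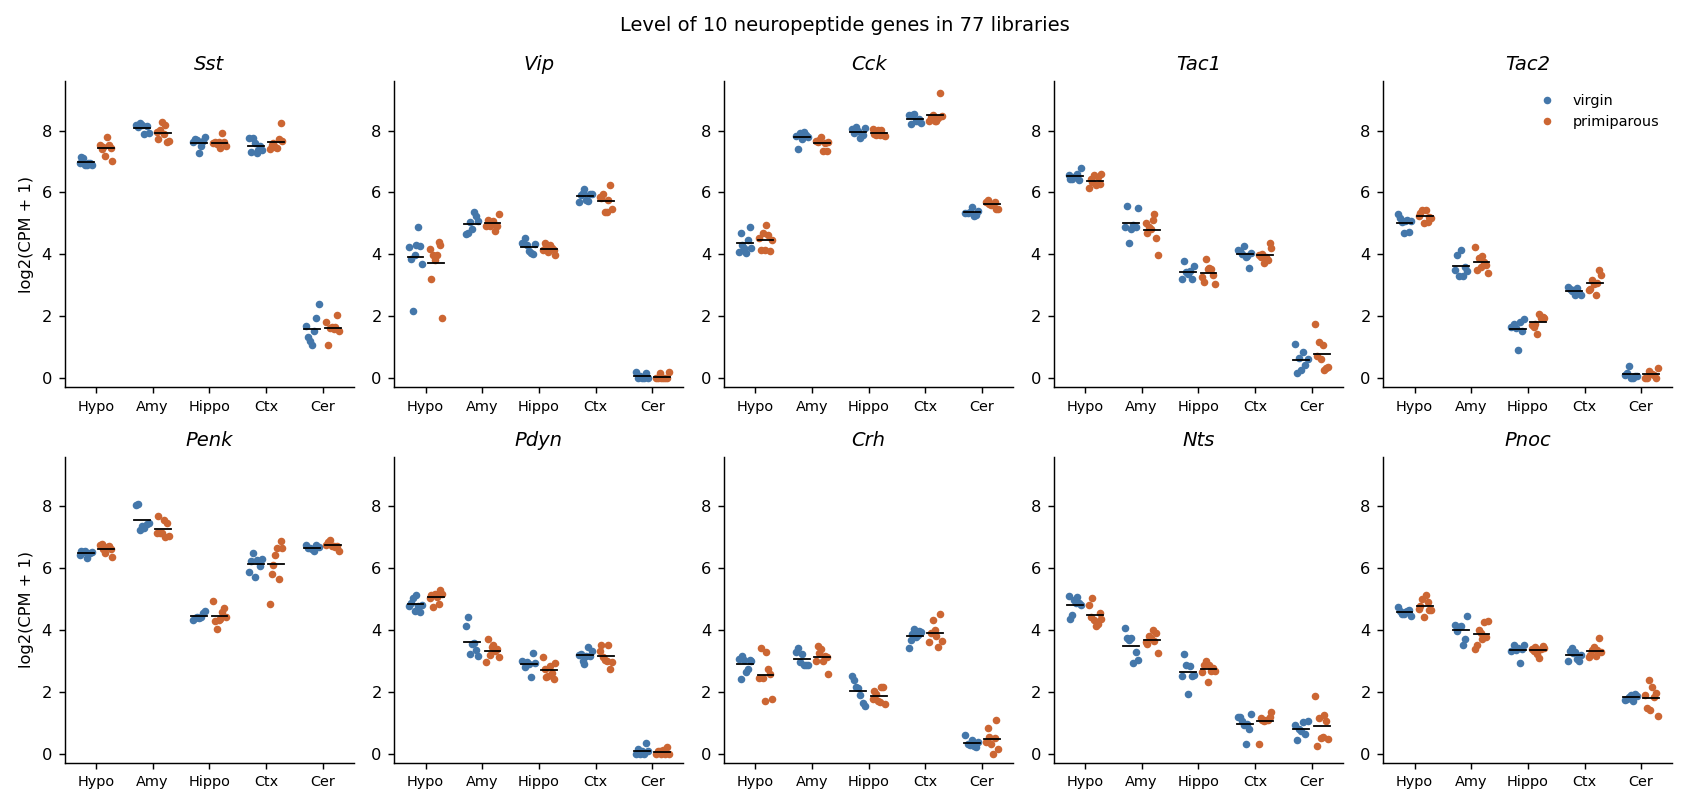
Level of each gene, as log2(CPM + 1), in every library of each region, whose names are shortened on the axis. Points are libraries of virgin (blue) and primiparous (orange) females and black lines are group means. Penk and Cck kept levels of about 103 and 44.2 CPM in the cerebellum, where Vip, Tac2 and Pdyn were near 0.

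Sst, the peptide of dendrite-targeting interneurons (chr16:23889573-23890958, minus strand), was high throughout the forebrain. Its level was 257 ± 36.5 CPM in the amygdala (SD, n = 15), 195 ± 20.8 in the hippocampus (n = 15), 191 ± 36.2 in the cortex (n = 16) and 149 ± 31.7 in the hypothalamus (n = 16). The amygdala exceeded the hippocampus 1.32-fold (log2 difference 0.40 ± 0.08 SE, edgeR adjusted p = 2.2e-05), and the cortex exceeded the hypothalamus 1.41-fold (adjusted p = 6.7e-08), while hippocampus and cortex did not pass the test (adjusted p = 0.498). The cerebellum held 2.12 ± 0.824 CPM (n = 15), a 68.8-fold lower level than the hypothalamus.

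Vip, the peptide of interneurons that inhibit other interneurons (chr10:5639218-5647617, plus strand), was highest in the cortex at 55.5 ± 9.29 CPM (n = 16). The amygdala followed at 31.1 ± 4.84 CPM (n = 15), the hippocampus at 17.5 ± 2.08 (n = 15) and the hypothalamus at 14.8 ± 6.34 (n = 16). Each step in this order passed the test, from 1.75-fold between cortex and amygdala (adjusted p = 4.0e-07) to 1.32-fold between hippocampus and hypothalamus (adjusted p = 0.00862). The ranges of the last pair overlapped, with hypothalamic libraries from 2.81 to 28.6 CPM. The within-state coefficient of variation of Vip in the hypothalamus was 43.7%, against a median of 11.6% over all genes tested there. The lowest libraries were those of virgin animal 4486 (3.46 CPM) and primiparous animal 4493 (2.81 CPM). In the cerebellum, Vip had 10 reads over 15 libraries and 0 reads in 10 of them, and 3 reads correspond to 0.103 to 0.345 CPM there.

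Cck (chr9:121489824-121495694, minus strand) was higher in each telencephalic region than in the hypothalamus, 18.5-fold in the cortex, 13.2-fold in the hippocampus and 11.04-fold in the amygdala. It stood at 350 ± 68.9 CPM in the cortex (n = 16), 246 ± 18.1 in the hippocampus (n = 15) and 205 ± 26.4 in the amygdala (n = 15). The cortex exceeded the hippocampus 1.39-fold (adjusted p = 3.4e-09) and the hippocampus exceeded the amygdala 1.199-fold (adjusted p = 0.000788). The cerebellum, at 44.2 ± 5.26 CPM (n = 15), lay 2.14-fold above the hypothalamus, at 20.5 ± 4.50 CPM (n = 16), with ranges that did not overlap (36.8 to 53.5 against 15.4 to 29.8 CPM; adjusted p = 1.5e-23).

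Tac1 (chr6:7554879-7565834, plus strand) and Tac2 (chr10:127724478-127731768, plus strand) shared their order of levels, with hypothalamus above amygdala, cortex, hippocampus and cerebellum. Tac1 was 87.0 ± 9.75 CPM in the hypothalamus (n = 16) and 29.5 ± 8.45 in the amygdala (n = 15), and Tac2 was 34.2 ± 5.003 and 12.05 ± 2.83 CPM in the same libraries. Hypothalamic libraries did not overlap those of the amygdala for either gene (2.66-fold for Tac1 and 2.58-fold for Tac2, adjusted p = 1.8e-18 and 1.0e-19). The lowest forebrain level of this pair was that of Tac2 in the hippocampus, at 2.32 ± 0.579 CPM (n = 15). Over the 77 libraries, Tac1 and Tac2 had a Pearson r of 0.967 on the log2(CPM + 4) scale, the highest among the 10 members, as a description of libraries that share regions.

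The opioid precursors followed different orders. Penk (chr4:4133531-4138819, minus strand) was highest in the amygdala at 172 ± 43.7 CPM (n = 15). The cerebellum, at 103 ± 6.83 CPM (n = 15), and the hypothalamus, at 93.0 ± 8.97 CPM (n = 16), did not pass the test against each other (adjusted p = 0.150). The cortex held 72.5 ± 22.05 CPM (n = 16) and the hippocampus 21.0 ± 3.33 CPM (n = 15). Another gene, A830012C17Rik, overlaps Penk on the opposite strand, and reads of the pair cannot be told apart, as no source used here says whether strand was counted.

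Pdyn (chr2:129686565-129699844, minus strand) was 29.9 ± 4.51 CPM in the hypothalamus (n = 16), 2.59-fold above the amygdala at 10.5 ± 3.58 CPM (n = 15, adjusted p = 2.8e-19). Cortex and hippocampus held 8.04 ± 1.39 (n = 16) and 6.04 ± 1.21 CPM (n = 15). In the cerebellum, Pdyn had 16 reads over 15 libraries and Tac2 had 24, with 0 reads in 7 and 5 libraries, respectively. Pnoc (chr14:65400673-65425472, minus strand) was less steep, from 24.8 ± 3.66 CPM in the hypothalamus (n = 16) and 14.5 ± 3.31 in the amygdala (n = 15) to 9.21 ± 1.06 in the hippocampus (n = 15), 8.66 ± 1.35 in the cortex (n = 16) and 2.55 ± 0.698 in the cerebellum (n = 15).

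Crh, the hypothalamic releasing hormone of the stress axis (chr3:19693401-19695396, minus strand), was highest in the cortex at 13.7 ± 3.14 CPM (n = 16). The amygdala held 7.65 ± 1.48 CPM (n = 15) and the whole hypothalamus 5.90 ± 2.11 (n = 16), a 1.44-fold difference with overlapping ranges (adjusted p = 0.00166). Nts (chr10:102481756-102490486, minus strand) stepped down from 24.6 ± 5.76 CPM in the hypothalamus (n = 16) to 11.4 ± 2.67 in the amygdala (n = 15) and 5.52 ± 1.29 in the hippocampus (n = 15). Its cortical and cerebellar levels, 1.04 ± 0.367 (n = 16) and 0.862 ± 0.610 CPM (n = 15), did not pass the test against each other (adjusted p = 0.112).

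Levels were also taken per kilobase, over all exons of a gene in GENCODE M21 together. Reads were counted on another annotation, so that genes compare only roughly on this scale. Sst was the most abundant member in the hypothalamus at 206 ± 43.9 CPM per kilobase (n = 16), followed by Penk at 56.9 ± 5.49. Tac1 and Tac2, which differ in CPM, lay close together on this scale at 25.6 ± 2.87 and 24.8 ± 3.63. Their closeness rests on the exon lengths used, 3399 bases for Tac1 and 1378 for Tac2. In the cortex, Cck was at 268 ± 52.8 (n = 16) and Sst at 265 ± 50.2 on the same scale, and Vip was at 16.3 ± 2.73.

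The 3 tested genes whose pattern was most like each member were taken by Pearson r of log2(CPM + 4) over the 77 libraries, in which the regions set most of the spread. They were Basp1, Gda and Lrfn2 for Sst (r = 0.991, 0.987 and 0.985), Fam212b, Dnajb5 and Mgll for Cck (0.975, 0.972 and 0.967), and Stx1a, Ngef and Dact2 for Vip (0.966, 0.965 and 0.961). Tac1 was nearest to Ntsr1, a neurotensin receptor gene (0.979), then Rcn1 and Rhbdd2 (both 0.977). Tac2 was nearest to Cartpt, the precursor of CART peptide (0.980), then Resp18 and Mboat7 (0.979 and 0.972). For Pdyn they were Slc1a4, Htr7 and Rgs9 (0.976, 0.971 and 0.965), for Nts Gpr101, Pnmal2 and Stk32b (0.965, 0.953 and 0.952), and for Pnoc Tox2, Rhbdd2 and Dnah1 (0.963, 0.958 and 0.957). Crh and Penk had looser neighbours, with Pmepa1, Lrrc75a and Dcx at 0.930, 0.922 and 0.919, and Cdh22, Camk2d and Nrxn2 at 0.912, 0.905 and 0.903.

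The second comparison was between virgin and primiparous females within each region. In the hypothalamus, Sst was higher and Nts lower in primiparous females, so that 2 of the 10 members passed the test, where 22.6% of all 13016 genes did. The share of members is near that background. The median log2 fold change of the members was 0.10, against 0.01 over all genes tested, and 7 of the 10 members had an unadjusted p under 0.05, against 37.1% of all genes.

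Sst libraries of virgin females lay between 117 and 141 CPM in the hypothalamus, with a median of 122 and a mean of 125 ± 9.21 (SD, n = 8). Libraries of primiparous females lay between 128 and 222 CPM, with a median of 173 and a mean of 172 ± 28.0 (n = 8). All 8 primiparous libraries were above the virgin mean and 7 of 8 were above the highest virgin library, and the exception was animal 4493. The log2 fold change was 0.44 ± 0.08 (SE), a 1.36-fold difference (edgeR adjusted p = 0.0014), and the call held without any 1 of the 16 libraries (adjusted p from 0.00028 to 0.00479). With a correction of each library for gene length and GC content, the log2 fold change was 0.25 (adjusted p = 0.00519).

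Animal numbers had 3 digits in 2 virgin and 7 primiparous mice and 4 digits in 6 virgin mice and 1 primiparous mouse, and what the digits stand for is not given in the sources used here. The 2 virgin libraries with 3 digits held 123 and 141 CPM of Sst, below the 7 primiparous libraries with 3 digits, which started at 145 CPM. Animal 4493, at 128 CPM, is the only primiparous mouse with 4 digits, and its Sst level lay within the range of the 6 virgin libraries with 4 digits (117 to 138 CPM). With the number of digits as a covariate the log2 fold change of Sst was 0.29 (edgeR adjusted p = 0.184), and in 3-digit animals alone it was 0.43 (adjusted p = 0.999). State and number series are largely confounded, so that their parts in this difference cannot be told apart.

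Nts libraries of virgin females lay between 19.4 and 33.0 CPM (median 28.2, mean 27.5 ± 4.84, n = 8), and those of primiparous females between 16.4 and 31.9 CPM (median 19.9, mean 21.7 ± 5.33, n = 8). The groups overlapped, and 7 of 8 primiparous libraries were below the virgin mean, the exception being animal 415. The log2 fold change was -0.35 ± 0.13 (edgeR adjusted p = 0.0492), just inside the threshold. The call was lost with limma-voom (adjusted p = 0.0960) and with the length and GC correction (log2 fold change -0.11, adjusted p = 0.665). It was also lost with upper-quartile normalization, without the filter, in 1 fit of all groups, with the digits covariate and in 3-digit animals, so that it held in 3 of 10 alternatives, and it held in 4 of the 16 fits that left out 1 library, those without primiparous animal 413 or 415 or virgin animal 409 or 4486 (adjusted p from 0.0101 to 0.0993 over all 16). Sst has a GC content of 56.0% and Nts of 39.4%.

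**Figure D2:**
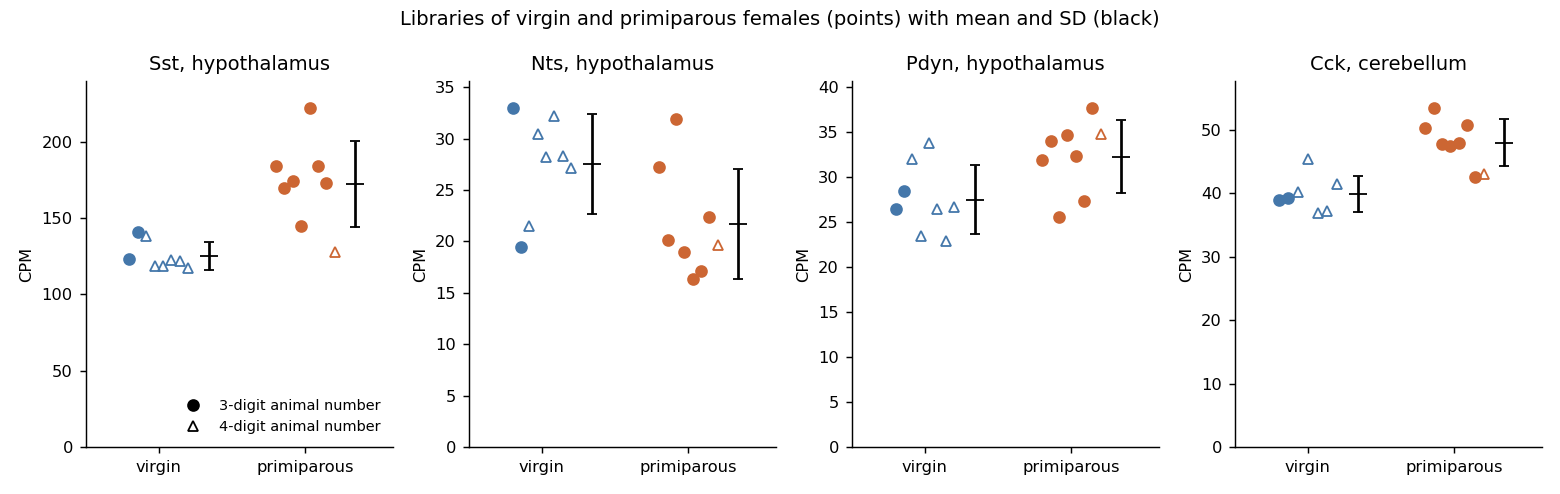
CPM of Sst, Nts and Pdyn in the hypothalamus and of Cck in the cerebellum, by state. Points are libraries, filled circles for animals with 3-digit numbers and open triangles for animals with 4-digit numbers, and black bars are mean and SD. For Sst, 7 of 8 primiparous libraries stand above the highest virgin library, and for Nts the groups overlap.

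The other 8 members did not pass the test in the hypothalamus. Of the opioid precursors, Pdyn had virgin libraries from 22.9 to 33.8 CPM (mean 27.5 ± 3.81) and primiparous libraries from 25.6 to 37.7 CPM (mean 32.3 ± 4.01), a log2 fold change of 0.21 ± 0.09 (adjusted p = 0.0839). Penk had a log2 fold change of 0.13 ± 0.06 (adjusted p = 0.101) and Pnoc of 0.18 ± 0.09 (adjusted p = 0.131). The tachykinins had opposite signs, with -0.17 ± 0.07 for Tac1 (adjusted p = 0.0768) and 0.19 ± 0.09 for Tac2 (adjusted p = 0.109). Crh (-0.32 ± 0.24, adjusted p = 0.344), Vip (-0.26 ± 0.37, adjusted p = 0.641) and Cck (0.08 ± 0.13, adjusted p = 0.708) had errors near the size of the difference or above it. Without 1 library the log2 fold change ran from -0.50 to -0.20 for Crh and from -0.41 to -0.08 for Vip, with 0 fits called. With the length and GC correction the signs of Tac1, Vip and Cck turned.

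Leaving out primiparous animal 418 raised the number of members called to 5, which were Sst, Tac1, Tac2, Penk and Pnoc, while the share of all genes called rose from 22.6% to 31.6%. Without primiparous animal 4493 the 3 members Sst, Tac1 and Penk passed, without primiparous animal 415 Sst, Pdyn and Nts passed, and without virgin animal 409 Sst, Tac1 and Nts passed, where 25.8%, 21.4% and 30.2% of all genes did. Without primiparous animal 413 or virgin animal 4486 Sst and Nts passed, and without virgin animal 4488 Sst and Pdyn passed, where 18.6%, 20.1% and 16.2% of all genes did. Sst alone passed without primiparous animals 414, 421, 425 or 427 or virgin animals 405, 4487, 4489, 4490 or 4491, fits in which 15.5% to 21.8% of all genes passed.

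Marker lists of other cells and tissues were read beside these values, and their part in the results was not tested. The summed level of 10 markers of GABAergic neurons was 1343 to 1525 CPM in virgin and 1303 to 1495 CPM in primiparous hypothalamus, and within that list Npy and Slc32a1 were higher and Gad2 lower in primiparous females. The 4 markers of forebrain excitatory neurons summed to 451 to 567.9 and 476 to 621 CPM, with 0 of 4 called (edgeR, 0 with an unadjusted p under 0.05). The 3 markers of the hippocampus summed to 36.4 to 43.7 and 41.6 to 53.0 CPM, with C1ql2 higher in primiparous females and 2 of 3 at an unadjusted p under 0.05. Low-level markers of other tissues were also higher in primiparous hypothalamus, namely Pcp2 of the cerebellum (log2 fold change 1.90, edgeR adjusted p = 0.0137), Ttr of the choroid plexus (1.52, adjusted p = 0.0208) and Tbx21 of the olfactory bulb (1.63, adjusted p = 0.0428). Their mean levels over the 16 libraries were 0.586, 2.18 and 0.322 CPM. Each was the only gene of its list called, of 5, 3 and 3 tested, with 3, 1 and 2 at an unadjusted p under 0.05. The background for the marker counts of this paragraph is 22.6% of all genes called and 37.1% at an unadjusted p under 0.05. The summed cerebellar list was 17.6 to 28.4 CPM in virgin and 16.6 to 30.5 CPM in primiparous females, the choroid plexus list 34.5 to 48.1 and 34.9 to 61.8 CPM, and the olfactory bulb list 6.56 to 9.57 and 6.31 to 15.7 CPM. Of the 5 hypothalamic markers Pmch was lower, with 2 at an unadjusted p under 0.05, and 0 of the 12 tested markers of striatum, thalamus, medial habenula and pituitary passed the edgeR test (0 at an unadjusted p under 0.05). The summed thalamus list was 40.9 to 161 CPM in virgin and 36.7 to 70.1 CPM in primiparous hypothalamus. The pituitary list was 0.855 to 182 and 0.665 to 142 CPM, the striatal list 168 to 197 and 168 to 205 CPM. The medial habenula list was 6.99 to 11.3 and 7.39 to 11.8 CPM.

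In the cerebellum, where only Cck and Penk had a mean above 2.55 CPM, Cck was the 1 member of 10 that passed the test, and 0.707% of all genes did. Virgin libraries lay between 36.8 and 45.4 CPM (median 39.3, mean 39.9 ± 2.89, n = 7) and primiparous libraries between 42.6 and 53.5 CPM (median 47.9, mean 48.0 ± 3.71, n = 8). All 8 primiparous libraries were above the virgin mean and 6 of 8 were above the highest virgin library. The log2 fold change was 0.28 ± 0.06 (edgeR adjusted p = 0.0483), close to the threshold. The call held in 5 of 10 alternatives and was lost with limma-voom (adjusted p = 0.0523), without the filter, in 1 fit of all groups, in 3-digit animals and with the digits of the animal number as a covariate (adjusted p = 0.794), while the log2 fold change stayed between 0.20 and 0.32 in all 10. It held in 5 of 15 fits that left out 1 library, those without primiparous animal 418, 427 or 4493 or virgin animal 405 or 4487. The share of all genes that passed moved as well, from 0% to 3.88% (DESeq2) over the 10 alternatives. Without 1 library it ran from 0.046% (virgin 4486 left out) to 6.94% (primiparous 4493 left out).

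Markers were read beside the cerebellar values too, and their part in the Cck difference was not tested. The 5 cerebellar markers summed to 5326 to 5901 CPM in virgin and 5146 to 5801 CPM in primiparous females, and 0 of 5 were called by edgeR, with 4 at an unadjusted p under 0.05. Of these, Car8 (log2 fold change 0.18, adjusted p = 0.0931) and Pcp2 (0.17, adjusted p = 0.239), genes of Purkinje cells, were positive, and Cbln3 (-0.15, adjusted p = 0.0856) and Fat2 (-0.35, adjusted p = 0.202), genes of granule cells, were negative. The 10 GABAergic markers summed to 2345 to 2584 and 2393 to 2648 CPM, with 0 of 10 called and 4 at an unadjusted p under 0.05. Among them Pvalb was positive (log2 fold change 0.28, edgeR adjusted p = 0.0556) and Calb2 negative (-0.13, adjusted p = 0.198). The background for the marker counts of this paragraph is 0.707% of all genes called and 19.5% at an unadjusted p under 0.05. The 5 pituitary markers summed to 0.641 to 4.45 CPM in virgin and 1.24 to 121 CPM in primiparous females, with 0 of 2 tested called (Gh, log2 fold change 4.80, adjusted p = 0.125; Prl, 4.75, adjusted p = 0.123) and both at an unadjusted p under 0.05. The 4 choroid plexus markers summed to 34.3 to 1283 and 44.8 to 3551 CPM, with 0 of 3 tested called and 0 at an unadjusted p under 0.05.

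Penk, the other member well above 0 in the cerebellum, was 100.4 ± 4.88 CPM in virgin and 106 ± 7.65 CPM in primiparous females (log2 fold change 0.09 ± 0.05, adjusted p = 0.380).

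**Figure D3:**
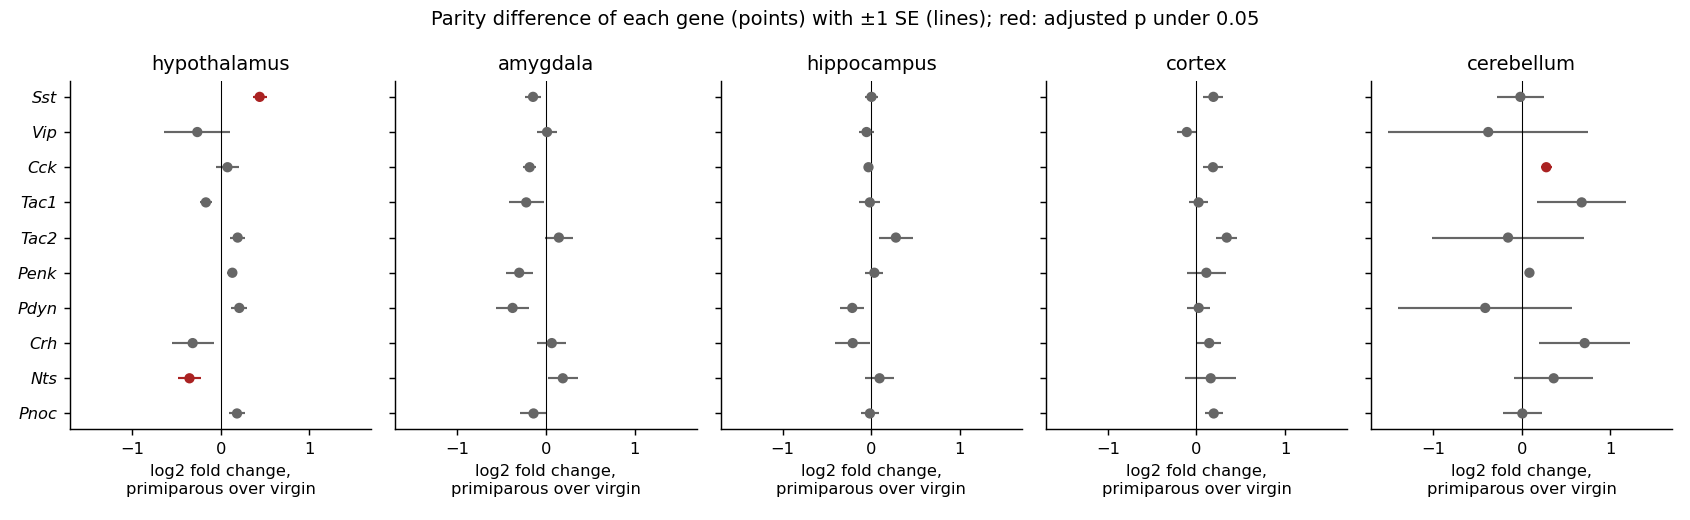
Log2 fold change, primiparous over virgin, of each gene in each region (points) with ±1 SE (lines), from edgeR. Red marks adjusted p under 0.05, which Sst (0.44) and Nts (-0.35) reached in the hypothalamus and Cck (0.28) in the cerebellum, where the wide lines belong to genes near 0 CPM.

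In the amygdala, hippocampus and cortex, 0 of 10 members passed the edgeR test, where 0% of all genes did, and limma-voom and DESeq2 also called 0 members. Limma-voom called 0% of all genes in these regions, and DESeq2 called 0.814%, 0.0999% and 0%, respectively. At an unadjusted p under 0.05 there was 1 member in the amygdala (Cck), 0 in the hippocampus and 1 in the cortex (Tac2), against 11.9%, 7.38% and 9.80% of all genes. Cortical Tac2 was 6.03 ± 0.495 CPM in virgin females (n = 8, range 5.36 to 6.68) and 7.47 ± 1.595 CPM in primiparous females (n = 8, range 5.43 to 10.3), a log2 fold change of 0.34 ± 0.12 (edgeR adjusted p = 0.479). Amygdalar Cck was 220 ± 25.1 CPM in virgin (n = 7) and 192 ± 20.9 CPM in primiparous females (n = 8), a log2 fold change of -0.18 ± 0.07 (adjusted p = 0.322).

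One cortex library, that of primiparous animal 427, held the highest levels of Cck (594 CPM, with the next cortex library at 368 CPM), Sst (305 CPM, next 216), Tac2 (10.3 CPM, next 9.01), Penk (116 CPM, next 98.5), Vip (73.7 CPM, next 67.6), Crh (21.8 CPM, next 19.0), Tac1 (19.5 CPM, next 18.3) and Pnoc (12.4 CPM, next 9.93), which left Pdyn and Nts as the exceptions among the 10 members. Without it the log2 fold change in the cortex was 0.06 in place of 0.19 for Cck and 0.08 in place of 0.19 for Sst, and neither value passed the test with or without it.

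Whether the parity difference in the hypothalamus differed from that in another region was tested as an interaction. Against the amygdala, Sst and Pdyn passed, where 18.2% of all genes did. The log2 fold change of Sst was 0.44 in the hypothalamus and -0.15 in the amygdala, a difference of 0.59 ± 0.13 (edgeR adjusted p = 0.0022; with the animal as a replicate block, adjusted p = 0.00243). That of Pdyn was 0.21 and -0.38, a difference of 0.60 ± 0.21 (adjusted p = 0.0403), and this call was lost with the animal as a block (adjusted p = 0.112) and with limma-voom (adjusted p = 0.0618). Penk (0.44 ± 0.16, adjusted p = 0.0554) and Nts (-0.54 ± 0.22, adjusted p = 0.0781) did not pass.

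Against the hippocampus, Sst was the 1 member that passed (difference 0.43 ± 0.11, edgeR adjusted p = 0.0122; with the animal as a block, adjusted p = 0.0229), where 17.2% of all genes did. Hippocampal Sst was 195 ± 23.0 CPM in virgin and 195 ± 20.2 CPM in primiparous females. With the block and the length and GC correction together, the differences of Sst were 0.36 against the amygdala (adjusted p = 0.0544) and 0.20 against the hippocampus (adjusted p = 0.320). In these fits 0.822% and 0.346% of all genes passed, in place of 18.2% and 17.2%. Against the cortex 0 of 10 members and 0% of all genes passed, and the difference of Sst was 0.25 ± 0.14 (adjusted p = 1.00). Against the cerebellum 0 of 10 members passed, where 15.5% of all genes did, and Sst (0.46 ± 0.26, adjusted p = 0.236) and Cck (-0.21 ± 0.15, adjusted p = 0.375) did not. Apart from Cck and Penk, the members had means of at most 2.55 CPM in the cerebellum (Sst 2.12 CPM). This count therefore says little about them. At an unadjusted p under 0.05, 0 of the 10 members stood against the cortex, where 336 of all 13016 genes did, and 0 against the cerebellum, where 3969 did, and limma-voom called 0 members in both.

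Penk, Pdyn and Tac1 are also expressed by medium spiny neurons of the striatum, which borders the amygdala, and the level of 7 markers of these neurons (Ppp1r1b, Drd1, Drd2, Adora2a, Rgs9, Gpr6 and Pde10a) was set beside the members. In the amygdala their summed level was 248 to 449.9 CPM in virgin and 208 to 364 CPM in primiparous females. The highest libraries were those of virgin animals 409 (449.9 CPM) and 405 (417 CPM), which also had the highest Penk (270 and 261 CPM) and Pdyn (20.3 and 16.4 CPM). The other 5 virgin libraries held 149 to 174 CPM of Penk and 7.98 to 10.9 CPM of Pdyn, against 126 to 204 and 6.72 to 12.2 CPM in the 8 primiparous libraries. The marker sum was not particular to regions beside the striatum. Its medians in virgin and primiparous females were 277 and 255 CPM in the amygdala and 285 and 299 CPM in the cerebellum. They were 183 and 198 CPM in the cortex, 184 and 194 in the hypothalamus, and 161 and 163 in the hippocampus. The sum is thus no measure of striatal tissue alone.

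Of 20 relations tested (10 members in cortex and amygdala), 3 passed after Benjamini-Hochberg adjustment of Pearson's p, of which 2 were in the amygdala. Penk was higher where the striatal markers were higher, over 15 libraries (r = 0.915, permutation p = 1e-05, the smallest the permutations can give, adjusted p = 0.0002; Spearman's rho = 0.821, permutation p = 0.00034, adjusted p = 0.0035). Without the 2 libraries farthest from the median, virgin 405 and 409, r was 0.780 (permutation p = 0.0017), and within virgin and primiparous females it was 0.893 and 0.912. Pdyn followed with r = 0.867 (permutation p = 6e-05, adjusted p = 0.0006; rho = 0.789, permutation p = 0.00071, adjusted p = 0.00473), with 0.634 without the same 2 libraries (permutation p = 0.02) and 0.979 and 0.609 within the states. Tac1 did not pass in the amygdala (r = 0.222, permutation p = 0.424, and -0.114 without the same 2 libraries). In the cortex, Vip was lower where these markers were higher, over 16 libraries (r = -0.732, permutation p = 0.0013, adjusted p = 0.00867; rho = -0.809, permutation p = 0.00035, adjusted p = 0.0035). Without virgin 405 and primiparous 4493, the farthest libraries, r was -0.772 (permutation p = 0.00107), and within virgin and primiparous females it was -0.758 and -0.851. Whether Pearson's r of cortical Vip passed the adjustment depended on which markers the list held, while the relations of Penk and Pdyn passed either way.

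**Figure D4:**
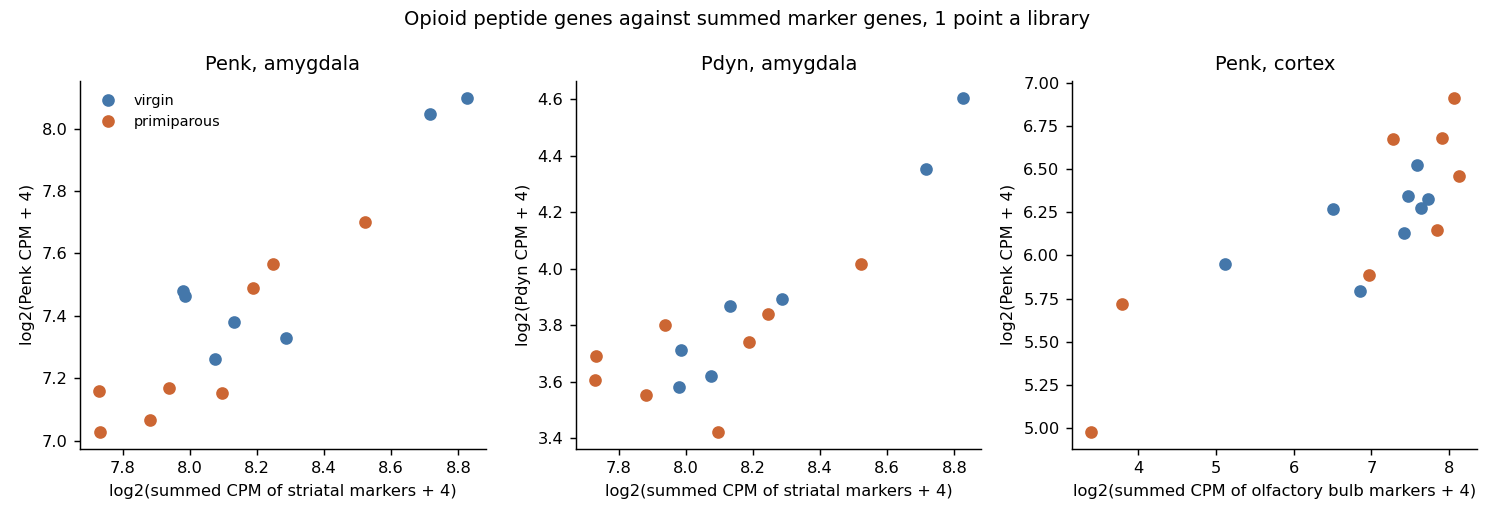
Penk and Pdyn in the amygdala against the summed level of 7 striatal markers, and Penk in the cortex against that of 3 olfactory bulb markers, all as log2(CPM + 4). Each point is a library of a virgin (blue) or primiparous (orange) female, and r is 0.915, 0.867 and 0.816 in the 3 panels.

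Amygdalar Penk was 192 ± 50.8 CPM in virgin and 155 ± 29.2 CPM in primiparous females (log2 fold change -0.30 ± 0.15, edgeR adjusted p = 0.454), and Pdyn was 11.9 ± 4.66 and 9.18 ± 1.69 CPM (-0.38 ± 0.19, adjusted p = 0.441). Without virgin 409 the log2 fold changes were -0.20 for Penk and -0.19 for Pdyn. In 3-digit animals alone, where virgin 405 and 409 are the only virgin libraries, they were -0.81 (adjusted p = 0.0288) and -1.03 (adjusted p = 0.0483), and 0.277% of all genes passed. The part of the striatal markers in the difference of Pdyn between hypothalamus and amygdala was not tested.

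Cortical Penk ranged from 27.5 CPM (primiparous 413) to 116 CPM (primiparous 427), a within-state coefficient of variation of 31.4% against a median of 14.8% over all genes there. It did not follow the striatal markers (r = 0.176, permutation p = 0.515) but rose with 3 markers of the olfactory bulb (Doc2g, Cdhr1 and Tbx21), a list applied to the cortex after the values were seen. Their summed level ran from 6.47 CPM in animal 413 to 276 CPM in animal 418. The relation had r = 0.816 over 16 libraries (permutation p = 9e-05, adjusted p = 0.0018 over 20 relations; rho = 0.771, permutation p = 0.00087). Without the 2 libraries farthest from the median, primiparous 413 and 425, r was 0.589 (permutation p = 0.0242), and within virgin and primiparous females it was 0.591 and 0.862.

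No receptor or binding partner of the 10 peptides passed the test between the states. Of 23 listed, 21 passed the filter (Sstr5 and Tacr2 did not), and 0 of 21 passed the edgeR test in any region, with unadjusted p under 0.05 for 2 in the hypothalamus, 3 in the hippocampus and 2 in the cerebellum. The share over all genes with an unadjusted p under 0.05 was 37.1%, 7.38% and 19.5% in these 3 regions, and the share called was 22.6%, 0% and 0.707%. Limma-voom and DESeq2 also called 0 of them in each region. These tools called 19.8% and 25.9% of all genes in the hypothalamus, and 0.553% and 3.88% in the cerebellum. In the amygdala, hippocampus and cortex limma-voom called 0%, and DESeq2 0.814%, 0.0999% and 0%. With the length and GC correction 1 of 21, the sorting receptor Sort1, passed in the cerebellum, where 3.34% of all genes did. Among the somatostatin receptors, Sstr1 had the highest hypothalamic level at 53.1 CPM (n = 16). Of the Nts receptor genes, Ntsr1 was at 26.9 CPM in the hypothalamus, Ntsr2 at 202 CPM and Sort1 at 260.0 CPM. The hypothalamic level of the neurokinin B receptor gene Tacr3 was 26.2 CPM and of the dynorphin receptor gene Oprk1 28.3 CPM. Cckbr, the main brain receptor of Cck, was highest in the cortex at 67.3 CPM (n = 16), and in the cerebellum, where Cck differed, it stood at 1.68 CPM (n = 15).

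Related peptides were followed as levels. Cort, a paralog of Sst, was 7.02 ± 2.28 CPM in the cortex (n = 16), and in the hypothalamus it had 52 reads over 16 libraries. Adcyap1, which encodes PACAP, a relative of Vip, was 118 ± 16.1 CPM in the hypothalamus (n = 16) and lower there in primiparous females (log2 fold change -0.26, edgeR adjusted p = 0.0112), a call that was lost with the digits covariate and with the length and GC correction. Ucn3, a relative of Crh, was 2.90 ± 1.24 CPM in the hypothalamus (n = 16) and 3.74 ± 1.72 CPM in the amygdala (n = 15). Of 8 hypothalamic peptides of feeding and arousal, 3 passed the test in the hypothalamus, with Npy (0.53) and Gal (0.36) higher and Pmch (-0.56) lower in primiparous females. The members had 2 of 10, and 22.6% of all genes passed, so that both counts are near the background. With the digits covariate and with the length and GC correction 0 of these 8 passed, where 0.023% and 3.18% of all genes did, while Sst passed with the latter.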

How the data were processed

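Polyadenylated RNA was sequenced from 5 brain regions of 8 virgin and 8 primiparous mice. The authors aligned reads to mm10 with Hisat2 and counted them per gene with featureCounts, and the deposited counts of 27179 genes are not normalized. A second deposited table gives log2 values of 13016 genes. The authors' file calls these log2(CPM + 4), but they lay within 5e-05 of log2(count/size factor + 4), with size factors from the median of ratios, and served only as an alternative. Of 80 labelled libraries, 3 virgin libraries (1 each of hippocampus, cerebellum and amygdala) had no column and were not analysed. The authors removed 1 sample from each of these regions as an outlier in a principal component analysis, so that the virgin spread there is that of the libraries kept.

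CPM used total counts (7959192 to 37871854 per library). The filter, 5 CPM or more in 8 or more libraries, gave the genes of the log2 table. Each region was fitted alone with edgeR 4.0.16 (TMM, robust quasi-likelihood F-test), differences between regions in 1 fit of 10 groups and interactions in fits of 4 groups, with Benjamini-Hochberg adjustment over all genes at 0.05. The study's own test, limma-voom (limma 3.58.1), was an alternative, as were DESeq2 1.42.0, other normalizations, no filter, the digits of the animal number, 1 fit of all groups, a length and GC correction (for 97.05% of genes) and leaving out each library. The fits were tested on simulated data. Correlations used 100000 permutations, two-sided. R 4.3.3 and Python 3.11.15 were used.

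Animal numbers in the labels recur in every region, which pairs libraries across regions. The median correlation between deviations of the same animal ran from -0.0132 to 0.104 in the 10 region pairs, and between those of other animals from -0.0107 to 0.0067. Alternatives for regions and interactions held the animal as a block.

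The members, gene lists and tests were chosen with earlier results of these data known. Named genes are the members, listed peptides and markers beside a result, and the 3 nearest patterns of each member. 1 striatal marker of the list is not reported here, and the values were computed without it. Receptors named for their level were chosen after their values were seen. Positions and exon lengths are from GENCODE M21 (GRCm38, which is mm10), and promoters from RefSeq.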

Additional observations from a re-analysis of the deposited data

Results flagged for a closer look

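Of 100 groups of a member, region and state, 8 held a library whose gap to its nearest neighbour was a large part of the range of the group (Dixon's 95% criterion on log2(CPM + 4)), and chance marks about 1 in 20 groups. The cortex library of primiparous animal 427 stood out in Sst (305 CPM, next 211) and Cck (594 CPM, next 364). The other highest values were Sst in the hippocampus of primiparous 425 (240.0 CPM, next 196), Tac1 in the hypothalamus of virgin 4491 (109 CPM, next 94.8) and Tac2 in the cerebellum of virgin 4486 (0.295 CPM, next 0.115). The lowest values that stood out were Cck in the amygdala of virgin 409 (169 CPM, next 212), Nts in the cortex of primiparous 413 (0.243 CPM, next 1.10) and Pnoc in the hippocampus of virgin 4488 (6.63 CPM, next 9.03).

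The parity difference differed between regions, by the interaction test, for Sst between hypothalamus and amygdala (log2 difference 0.59) and between hypothalamus and hippocampus (0.43), and for Pdyn between hypothalamus and amygdala (0.60). The values of Sst were each called in 3 of 4 alternatives. With the block and the length and GC correction together they were 0.36 and 0.20, and not called (edgeR adjusted p = 0.0544 and 0.320). In these fits 0.822% and 0.346% of all genes passed. The value of Pdyn was not called with the animal as a replicate block (edgeR adjusted p = 0.112) and was called in 1 of 4 alternatives. The causes were not tested.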

How the results depend on the processing

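In the hypothalamus 2 members passed (Sst and Nts), and 2 also passed with DESeq2, RLE normalization and the deposited log2 values. With limma-voom, upper-quartile normalization, no filter, 1 fit of all groups and the length and GC correction 1 member passed (Sst), with the digits of the animal number as covariate 0, in 3-digit animals alone 0, and without 1 library 1 to 5. Calls over all genes moved too, from 22.6% to 3.18% with the length and GC correction, 0.023% with the digits covariate and 0.0077% in 3-digit animals. They were 19.8% with limma-voom, 23.2% with upper-quartile normalization, 11.3% without the filter and 16.8% in 1 fit of all groups. DESeq2 gave 25.9%, RLE normalization and the deposited log2 values 22.6% each, and the fits without 1 library 15.5% to 31.6%. In the cerebellum 1 member passed (Cck), and 0 with limma-voom, no filter, the digits covariate, 3-digit animals alone and 1 fit of all groups, and 0 to 1 without 1 library. The share of all genes was 0.707% in the main fit, 0.553% with limma-voom, 0.283% without the filter and 0.730% in 1 fit of all groups. It was 0% with the digits covariate and in 3-digit animals, and 0.046% to 6.94% without 1 library. In 3-digit animals of the amygdala 2 members passed (Penk and Pdyn) where 0.277% of all genes did, against 0 in the other alternatives there, and in hippocampus and cortex each alternative gave 0. Against the amygdala 2 interactions passed, 1 with limma-voom and 1 with the replicate block (paired by animal), where 18.2%, 17.3% and 14.04% of all genes did. With the replicate block and the length and GC correction 0 passed, where 0.822% of all genes did. Against the hippocampus 1 passed, where 17.2% of all genes did. With the replicate block and the length and GC correction 0 passed there, where 0.346% of all genes did. The block changed 0 of the 100 calls between regions (96 with and without it) and no other interaction call. Over 5 alternatives the calls between regions ran from 70 to 96, and which alternative gave 70 is not reported here. Of 212 member values under the alternatives other than leaving out a library, 187 kept their direction and side of the threshold, 19 lost a call, 2 gained one and 4 changed sign. The 19 were all among the values of Sst, Nts, Cck and Pdyn that were called at first, and most of the 187 were never called. In the hypothalamus, with the length and GC correction, Vip became 0.018, Cck -0.096 and Tac1 0.0029, Cck ranged from -0.012 (without primiparous 421) to 0.16 without 1 library, and amygdalar Cck became 0.013 in 3-digit animals, none of which passed the test before or after. Relations with the striatal markers that passed numbered 3, also with TMM-scaled library sizes and with a pseudocount of 1. Whether Pearson's r of cortical Vip was among them depended on which markers the list held. Of the other lists, added after seeing the data, the olfactory bulb markers in the cortex gave 1 and the hypothalamus markers in the amygdala 0. The causes of these changes were not tested. The cerebellar values of Vip, Tac2 and Pdyn rested on 10, 24 and 16 reads over 15 libraries.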
